A study of Mus musculus with 6 samples.

Results

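The genes of respiratory complexes II to V are the nuclear genes for the subunits of succinate dehydrogenase, the cytochrome bc1 complex, cytochrome c oxidase and ATP synthase. They were taken as all genes whose only annotated symbol was Sdha, Sdhb, Sdhc or Sdhd or began with Uqcr, Cox4 to Cox8 or Atp5. This gave 46 of the 18193 genes measured, with 4 in complex II, 8 in complex III, 17 in complex IV and 17 in complex V. They were compared between common myeloid progenitors (CMP) with a low and with a high content of reactive oxygen species (ROS). CMP form both granulocyte-monocyte progenitors and megakaryocyte-erythrocyte progenitors (MEP), and the series asks what ROS do in the step to MEP. Both groups were untreated CMP of C57BL6 mice, taken from the marrow of femurs, tibiae and ilia, and were sorted at the low and the high end of staining with H2-DCFDA, a dye that fluoresces once oxidised. Each group had 3 arrays, and the labels give neither the age of the mice nor whether the arrays of a group came from separate mice. A p-value here reflects spread between arrays alone, and that spread may be technical.

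The respiratory chain passes electrons from metabolites to oxygen in the inner mitochondrial membrane and uses the energy to pump protons, which drive ATP synthase. Complex II takes electrons from succinate and is also an enzyme of the citric acid cycle. Complex III passes them from ubiquinol to cytochrome c and is known as a site where superoxide leaks, complex IV hands them to oxygen, and complex V is ATP synthase. Stem cells of the marrow rely little on this chain, and progenitors that commit to a lineage draw on it more.

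Many nuclear respiratory genes are known to carry sites for the transcription factors NRF1, GABP and YY1 close to their start. RefSeq promoter windows (build GRCm38.p6, from 250 bases before to 50 bases after a start site) were found for 35 of the 46 genes, as 38 windows. On both strands they were searched for GCGCANGCG (NRF1), CCGGAAG (GABP) and AAGATGGCG (YY1), and no member window, and 4 of all windows, held different motifs that overlapped each other. Of the member windows, 31.6% held the NRF1 letters, 34.2% the GABP letters and 5.26% the YY1 letters, against 6.25%, 8.86% and 1.40% of all 32851 windows. Any of the 3 stood in 20 of the 38 member windows and in 14.8% of all windows. By complex, any motif stood in 3 of 3 windows of complex II, 3 of 5 of complex III, 3 of 12 of complex IV and 11 of 18 of complex V, and the NRF1 letters in 1 of the 12 of complex IV. The windows below belong to members of complexes II and V whose groups did not overlap and whose window held a motif (chosen after the matches were seen). Those of Cox5a and Atp5b follow, which had the smallest p among the members with a higher and with a lower mean. Of the 7 members whose groups did not overlap, 4 had a motif in a window, against 20 of the 35 members with a window. The windows of Uqcr10 and Atp5pb, also among those 7, held none and are not printed. Motif letters are in capitals.
Sdhb (chr4:140961021-140961320, plus strand): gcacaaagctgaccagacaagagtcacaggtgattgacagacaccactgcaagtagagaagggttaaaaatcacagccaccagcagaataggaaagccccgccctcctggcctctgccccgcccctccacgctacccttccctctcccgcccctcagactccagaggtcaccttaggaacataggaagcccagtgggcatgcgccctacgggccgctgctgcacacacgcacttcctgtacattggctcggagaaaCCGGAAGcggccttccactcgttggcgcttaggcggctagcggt
Sdhd (chr9:50603800-50604099, minus strand): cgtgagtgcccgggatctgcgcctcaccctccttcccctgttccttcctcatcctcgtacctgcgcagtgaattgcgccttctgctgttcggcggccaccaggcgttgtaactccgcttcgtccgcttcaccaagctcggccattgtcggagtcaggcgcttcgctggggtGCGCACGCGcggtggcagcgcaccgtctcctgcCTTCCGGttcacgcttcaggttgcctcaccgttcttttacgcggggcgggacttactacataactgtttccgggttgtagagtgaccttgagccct
Atp5k (chr5:108434350-108434649, minus strand): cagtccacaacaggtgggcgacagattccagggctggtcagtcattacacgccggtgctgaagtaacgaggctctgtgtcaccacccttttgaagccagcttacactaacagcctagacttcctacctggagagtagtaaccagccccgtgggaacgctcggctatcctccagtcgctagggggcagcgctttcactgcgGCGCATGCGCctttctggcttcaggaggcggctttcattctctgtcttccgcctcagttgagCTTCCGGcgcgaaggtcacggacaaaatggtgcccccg
Atp5o (chr16:91931581-91931880, minus strand): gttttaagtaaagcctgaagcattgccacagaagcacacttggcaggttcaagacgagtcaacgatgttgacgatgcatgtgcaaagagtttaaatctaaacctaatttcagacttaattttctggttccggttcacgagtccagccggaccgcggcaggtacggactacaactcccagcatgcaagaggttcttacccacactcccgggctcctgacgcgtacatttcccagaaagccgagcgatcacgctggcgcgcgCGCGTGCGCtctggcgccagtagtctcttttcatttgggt
Cox5a (chr9:57520982-57521281, plus strand): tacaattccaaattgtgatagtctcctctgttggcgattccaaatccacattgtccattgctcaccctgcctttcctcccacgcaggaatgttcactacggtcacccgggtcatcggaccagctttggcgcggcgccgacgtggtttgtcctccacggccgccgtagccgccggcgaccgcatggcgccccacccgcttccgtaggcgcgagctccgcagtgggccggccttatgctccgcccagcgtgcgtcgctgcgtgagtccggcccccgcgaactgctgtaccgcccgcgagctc
Atp5b (chr10:128083057-128083356, plus strand): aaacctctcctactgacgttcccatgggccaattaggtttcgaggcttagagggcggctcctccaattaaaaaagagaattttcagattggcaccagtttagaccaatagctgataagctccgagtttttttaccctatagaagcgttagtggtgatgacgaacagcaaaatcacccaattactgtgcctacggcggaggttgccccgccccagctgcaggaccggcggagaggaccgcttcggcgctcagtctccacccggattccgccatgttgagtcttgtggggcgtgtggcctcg

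The Sdhb window held 1 GABP match. In Sdhd and Atp5k an NRF1 match lay upstream of a GABP match, and Atp5o held an NRF1 match alone. None of the 3 motifs was found in these windows of Cox5a and Atp5b, which says only that these letters are not in them.

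No gene of complexes II to V passed the test. In limma, fitted on all genes with Benjamini-Hochberg adjustment at 0.05, 0 of 46 members differed, against 10 of all genes (0.0550%, with 0.0165% higher and 0.0385% lower), and the smallest adjusted p of a member was 0.553. At an unadjusted p under 0.05, 4 members had a higher mean in high-ROS CMP and 0 a lower one. These were Cox5a, Sdhb, Uqcr10 and Atp5pb, 1 from each complex. They make up 8.70% of the members, where 7.81% of all genes had such a p in either direction, 4.44% of them higher and 3.37% lower. The groups did not overlap for 7 members, all higher in high-ROS CMP, or 15.2% against 13.4% of all genes in either direction. In the higher direction alone the share of all genes was 8.04%, and in the lower one 5.32%. These counts rest on the probe set used for each gene. Of those members with further probe sets, only Cox5a had another one whose groups did not overlap. The count at an unadjusted p moved with the arrays kept and with the processing. It was 1 higher without high-ROS replicate 1 (against 661 higher and 486 lower of all genes) and 2 higher without low-ROS replicate 1 (677 and 475 of all genes). It was 2 higher and 1 lower without low-ROS replicate 3 (549 and 603 of all genes), and 4 higher and 3 lower without high-ROS replicate 2 (950 and 936 of all genes). With all arrays kept it was 1 higher without a mean-variance trend (829 and 522 of all genes), 6 higher with quantile normalization (725 and 760) and 6 higher with scaling to the same trimmed mean (965 and 575), where the fit above had 808 and 613.

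Over all members the difference was small. It is given as the log2 of the deposited signal plus 16 in high-ROS minus that in low-ROS CMP, and 27 members had a higher and 19 a lower mean. With quantile normalization 32 of 46 were higher, with a median difference of 0.059 against 0.0034 over all genes. With all arrays scaled to the same trimmed mean 33 of 46 were higher, with a median of 0.067 against 0.040. In the values as deposited the median difference was 0.04, against 0.02 over all genes, of which 54.0% had a higher mean. By complex it was 0.05 for complex II (2 of 4 higher), 0.07 for complex III (6 of 8), 0.05 for complex IV (10 of 17) and 0.01 for complex V (9 of 17). The members ranged from -0.34 for Atp5g2 to 0.39 for Uqcr10. The 95% interval of every member stayed within a 2-fold change either way, and that of 29 members within a log2 size of 0.5. A p that misses the threshold does not show that the levels were alike, and the median half-width of the 46 intervals was 0.26. Without low-ROS replicate 1 the median was -0.0042 and without high-ROS replicate 2 it was 0.0070. Without low-ROS replicate 3 it was 0.02, without low-ROS replicate 2 it was 0.07 and without high-ROS replicate 3 it was 0.08.

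**Figure D1:**
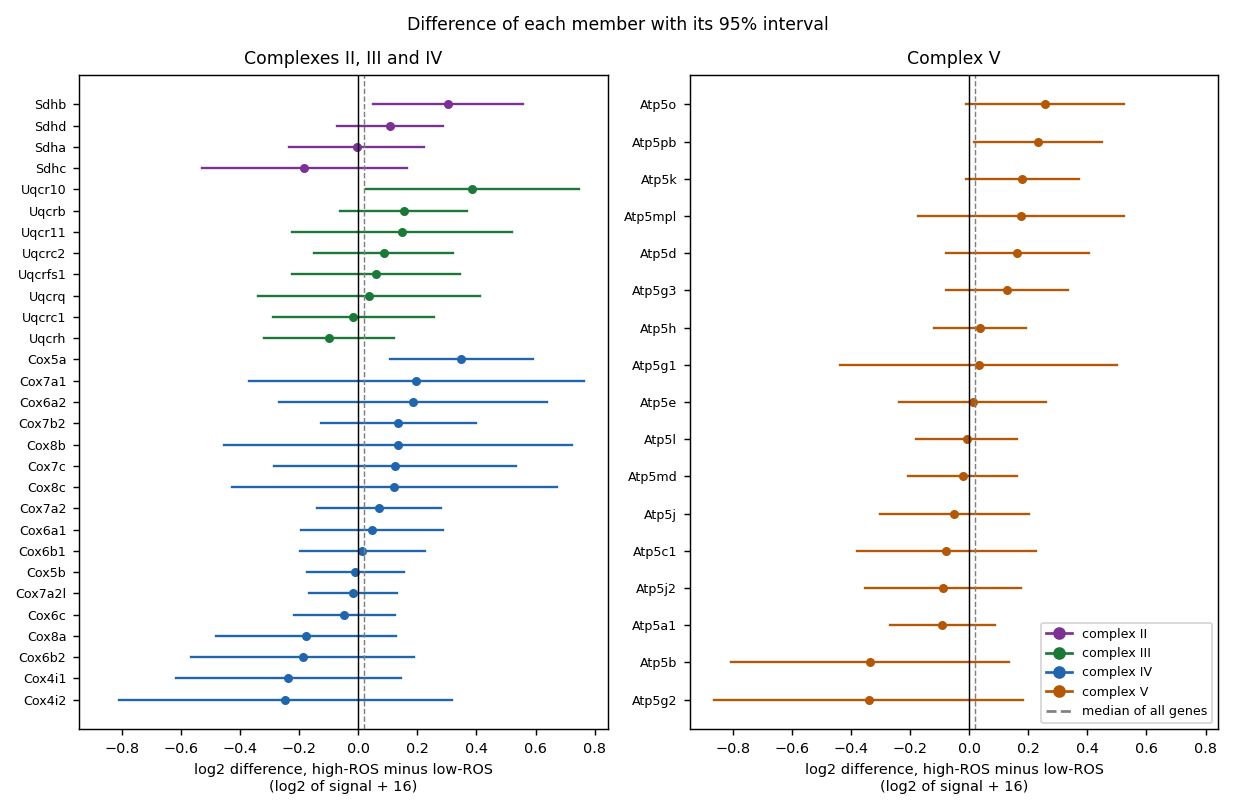
Each point is the log2 difference (log2 of signal + 16, high-ROS minus low-ROS) of 1 gene and each bar its 95% interval from the limma fit (3 arrays against 3), coloured by complex, with the dashed line at the median of all genes. The intervals of 42 of the 46 members cover 0, and those of Cox5a, Sdhb, Uqcr10 and Atp5pb lie above it.

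Complex II, the entry point for electrons from succinate, has catalytic subunits that carry flavin (Sdha) and iron-sulfur clusters (Sdhb) and a membrane anchor of Sdhc and Sdhd. The signal of Sdhb (Entrez Gene 67680) was 1671, 1375 and 1277 on low-ROS replicates 1 to 3 and 1826, 1699 and 1791 on high-ROS replicates 1 to 3. The highest low-ROS array lay just under the lowest high-ROS array. The log2 difference of Sdhb was 0.30 (SE 0.115, 95% interval 0.05 to 0.56), with a limma adjusted p of 0.587. The signal of its partner Sdha was 2972 ± 109 (SD, n = 3) on low-ROS and 2977 ± 388 on high-ROS arrays, which overlapped.

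The anchor genes lay on opposite sides. The signal of Sdhd (Entrez Gene 66925) was 2644, 2697 and 2715 on the low-ROS and 2914, 3012 and 2765 on the high-ROS arrays, so that the groups did not overlap, with a log2 difference of 0.11 (SE 0.0816). Sdhc, which with Sdhd binds ubiquinone, had 1137 ± 233 (SD, n = 3) on low-ROS and 991 ± 121 on high-ROS arrays, a log2 difference of -0.18 (SE 0.158) with overlapping groups. The second probe sets of both genes had the opposite sign and groups that overlapped, at -0.19 (SE 0.222) for Sdhd and 0.09 (SE 0.187) for Sdhc. Averaging the probe sets of each gene gave complex II a median of -0.04, and leaving out high-ROS replicate 2 gave -0.0024.

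In complex III, 6 of 8 members had a higher mean in high-ROS CMP. Uqcr10 (Entrez Gene 66152), one of its smallest subunits, had the largest difference of all members: signals were 537, 786 and 776 on the low-ROS and 909, 1030 and 796 on the high-ROS arrays. High-ROS replicate 3 exceeded the highest low-ROS array by little, and low-ROS replicate 1 was well below the rest. The log2 difference was 0.39 (SE 0.164, 95% interval 0.03 to 0.75; limma adjusted p = 0.619), and the 2 other probe sets of Uqcr10 had 0.28 and 0.71, the last from a mean signal of 52.2, below that of the median gene. On these 2 probe sets the groups overlapped. Uqcrb, a subunit near the ubiquinone site, had 2812 ± 151 (SD, n = 3) and 3138 ± 330, with a log2 difference of 0.15 (SE 0.0975) and 0.25 (SE 0.112) on its second probe set.

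The core and catalytic genes of complex III differed by less. The Rieske iron-sulfur protein Uqcrfs1 had 1033 ± 114 (SD, n = 3) on low-ROS and 1079 ± 134 on high-ROS arrays. The core proteins Uqcrc1 and Uqcrc2 had log2 differences of -0.02 (SE 0.124) and 0.09 (SE 0.107). Uqcrh, the hinge protein that helps cytochrome c bind, had -0.10 (SE 0.0994) on the probe set used and -0.30 (SE 0.130) on the other. Uqcr11 and Uqcrq had 0.15 (SE 0.170) and 0.04 (SE 0.171), with groups that overlapped. Without low-ROS replicate 1, the array on which Uqcr10, Uqcr11 and Uqcrq were lowest, the median of complex III was 0.03, and without high-ROS replicate 3 it was 0.12.

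Complex IV holds nuclear subunits around a catalytic core that mitochondrial DNA encodes, and several of them exist as a widely expressed and a tissue-limited isoform. Cox5a (Entrez Gene 12858), a matrix-side subunit, had the smallest p of all members. Its signal was 2232, 1896 and 1880 on the low-ROS and 2577, 2269 and 2822 on the high-ROS arrays. All 3 high-ROS arrays were above the low-ROS arrays, with low-ROS replicate 1 closest to them. The log2 difference was 0.35 (SE 0.110, 95% interval 0.11 to 0.59; limma adjusted p = 0.553), a 1.27-fold higher level. A second probe set gave 0.29 (SE 0.107), and another of similar brightness 0.05 (SE 0.127), with groups that overlapped. No other gene of complex IV had groups that did not overlap.

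Besides Cox5a, complex IV had 9 widely expressed subunits, of which 4 had a higher and 5 a lower mean, with a median difference of -0.0098. With Cox5a the median over the 10 was 0.0022. Cox7a2l was the steadiest member, with 5274 ± 44.6 (SD, n = 3) and 5210 ± 36.8. Cox5b had 4046 ± 139 and 4018 ± 94.9, and Cox6c had 4600 ± 41.3 and 4461 ± 318. Cox6a1, Cox6b1 and Cox7a2 had log2 differences of 0.05, 0.01 and 0.07, all with SE of at most 0.110, and Cox7c had 0.12 (SE 0.186). The lowest were Cox4i1, the subunit through which ATP restrains the enzyme, at -0.24 (SE 0.173), and Cox8a at -0.18 (SE 0.138). The signal of Cox4i1 (Entrez Gene 12857) was 2604, 2883 and 2943 on the low-ROS and 2709, 2946 and 1685 on the high-ROS arrays, so that its lower mean came from high-ROS replicate 3. Without that array the log2 difference of Cox4i1 was 0.0098.

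Tissue-limited isoforms were mostly near background. The median signal of all genes was 63.1 to 69.5 on the 6 arrays, and 41 members were above it on every array. The 5 that were not are Cox4i2, an isoform of lung, Cox7a1 and Cox8b, isoforms of heart and skeletal muscle, and Cox7b2 and Cox8c, isoforms of testis. Cox8b had 13.3 ± 8.92 (SD, n = 3) on low-ROS and 15.8 ± 8.44 on high-ROS arrays, and Cox7b2 had 1.75 ± 0.894 and 3.56 ± 2.14. The muscle isoform Cox6a2, at 85.8 ± 14.9 and 99.1 ± 8.74, and the testis isoform Cox6b2, at 329 ± 8.91 and 291 ± 58.8, lay above the median. None of these 7 isoforms had groups that did not overlap. Their median difference was 0.14, and the 12 genes of complex IV above the median gene had a median of 0.0022 where all 17 had 0.05. Without low-ROS replicate 1 the median of the 17 was -0.0075, and without high-ROS replicate 2 it was 0.0013.

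Complex V consists of an F1 part that makes ATP, a ring of c subunits in the membrane, and a peripheral stalk that holds the F1 part still. Of its 17 genes, 3 (17.6%) had groups that did not overlap on the probe set used, all higher in high-ROS CMP. Of all genes, 13.4% did so in either direction and 8.04% in the higher one. Atp5pb and Atp5o, both of the stalk, were among the 3. Atp5pb (Entrez Gene 11950), the b subunit of the stalk, had 1399, 1552 and 1474 on the low-ROS and 1777, 1620 and 1817 on the high-ROS arrays. Every high-ROS array was above every low-ROS array. The log2 difference of Atp5pb was 0.23 (SE 0.0987, 95% interval 0.02 to 0.45; limma adjusted p = 0.619). Atp5o (Entrez Gene 28080), the stalk subunit that binds the top of F1, had 913, 1185 and 1162 on the low-ROS and 1258, 1282 and 1338 on the high-ROS arrays, with 0.26 (SE 0.122, adjusted p = 0.641 in limma). Low-ROS replicate 1 was the lowest array for both. On the second probe sets of Atp5pb and Atp5o, with -0.07 (SE 0.156) and 0.11 (SE 0.150), the groups overlapped. The stalk genes Atp5h, at 0.04 (SE 0.0714), and Atp5j, at -0.05 (SE 0.114), had groups that overlapped.

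In the F1 part, 2 of 5 genes had a higher mean. Atp5b (Entrez Gene 11947), the catalytic beta subunit, had the smallest p among members with a lower mean: its signal was 2849, 3606 and 3920 on the low-ROS and 2934, 3730 and 1823 on the high-ROS arrays. The groups overlapped, and high-ROS replicate 3 was far below the others. The log2 difference of Atp5b was -0.34 (SE 0.213, 95% interval -0.80 to 0.13; limma adjusted p = 0.728). Atp5a1, the alpha subunit, had 6371 ± 63.7 (SD, n = 3) and 6000 ± 574 and was lowest on the same array. The gamma subunit gene Atp5c1 had -0.08 (SE 0.137), while Atp5d and Atp5e, of the central stalk, had 0.16 (SE 0.110) and 0.01 (SE 0.114).

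The 3 genes for the identical c subunit had differences of both signs. Atp5g2 signal was 929, 985 and 1104 on the low-ROS and 873, 1138 and 494 on the high-ROS arrays, with a log2 difference of -0.34 (SE 0.238). Atp5g3 had 0.13 (SE 0.0939) and Atp5g1 0.03 (SE 0.213). All 3 genes had groups that overlapped. Among the subunits in the membrane, Atp5k (Entrez Gene 11958), the e subunit at the contact of paired synthases, had 2566, 2893 and 2675 on the low-ROS and 2990, 2981 and 3249 on the high-ROS arrays. Its groups did not overlap on the probe set used, and the log2 difference was 0.18 (SE 0.0870). On the other probe sets of Atp5k, with 0.10 (SE 0.105) and 0.08 (SE 0.116), the groups overlapped. Atp5mpl had 0.18 (SE 0.159), and Atp5j2, Atp5l and Atp5md had -0.09 (SE 0.120), -0.01 (SE 0.0779) and -0.02 (SE 0.0840). Leaving out low-ROS replicate 1 gave complex V a median of -0.0069 and leaving out low-ROS replicate 2 one of 0.07. It was -0.04 when high-ROS replicate 2, and 0.07 when high-ROS replicate 3, was left out.

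**Figure D2:**
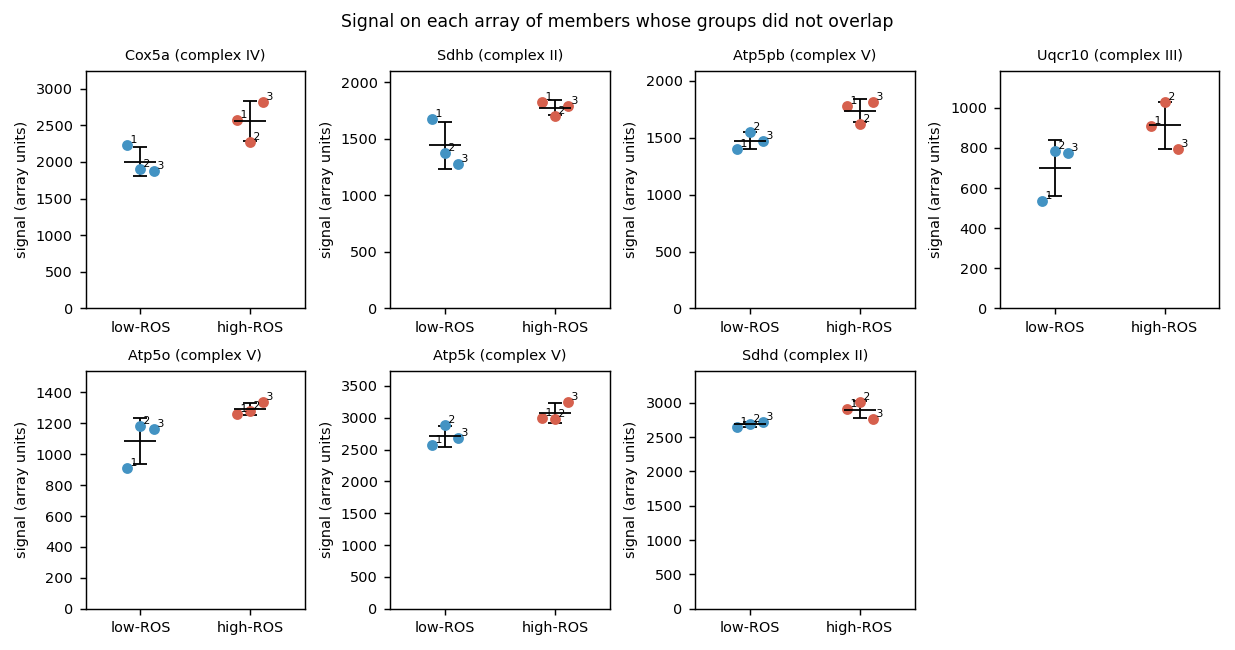
Points are the deposited signal (linear, array units, axis from 0) on each of 3 low-ROS and 3 high-ROS arrays, numbered by replicate, for the 7 members whose groups did not overlap, with the mean and SD as bars. The margin is narrow for most, such as 1671 against 1699 for Sdhb and 2715 against 2765 for Sdhd. Each gene is shown on the probe set used.

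The members also differed between arrays of the same group. High-ROS replicate 2 had the highest signal of the 6 arrays for 20 members (43.5%, against 15.2% of all genes) and the lowest for 0 (against 12.6%). Low-ROS replicate 1 had the lowest signal for 15 members (32.6%, against 21.0% of all genes) and the highest for 4 (8.70%, against 21.1%). Low-ROS replicate 3 was the highest for 5 (10.9%, against 9.73%). High-ROS replicate 3 was an array of extremes, with the lowest signal for 14 members (30.4%, against 22.2%) and the highest for 9 (19.6%, against 23.8%). On that array the levels relative to each gene's mean ran from -0.83 for Atp5g2 to 0.38 for Cox7a1, with an interquartile range of 0.30 over the members, where it was 0.09 on high-ROS replicate 1. Over all genes it was 0.36 and 0.24 on these arrays, so the wider spread on high-ROS replicate 3 was not limited to the members. The summed signal of the members was 86477, 92129 and 90461 on low-ROS replicates 1 to 3 and 91366, 95990 and 84963 on high-ROS replicates 1 to 3, so that the groups overlapped.

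**Figure D3:**
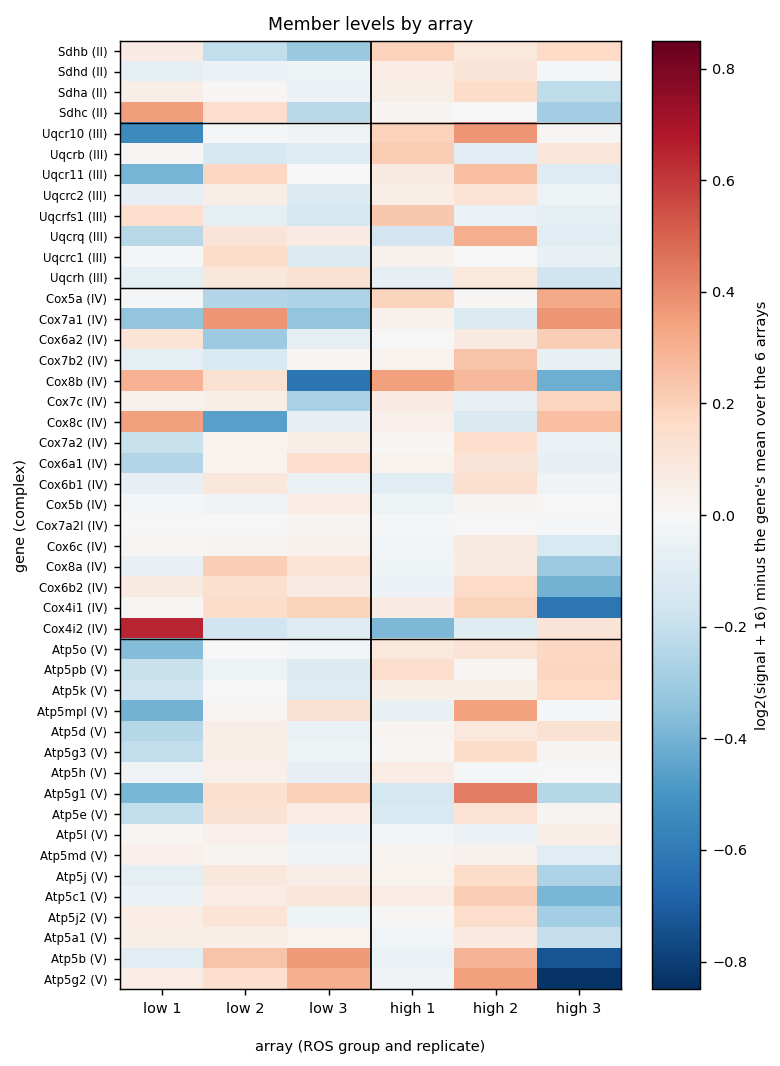
Rows are the 46 members by complex and columns the 6 arrays, with colour for log2(signal + 16) minus the gene's mean over the arrays (red above, blue below). High-ROS replicate 3 holds the darkest blue cells (Atp5g2 and Atp5b) beside red ones (Cox5a, Atp5pb), and high-ROS replicate 2 is red in most rows.

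The 3' to 5' signal ratio of the Gapdh control probe sets, a measure of RNA integrity and labelling, was 3.19, 2.84 and 2.54 on low-ROS replicates 1 to 3 and 3.57, 2.997 and 4.53 on high-ROS replicates 1 to 3. It was highest on high-ROS replicate 3. Probe sets of the same gene disagreed there. For Atp5pb, high-ROS replicate 3 gave the highest of 6 signals on the probe set used and the lowest on the other one, whose log2 difference was -0.07 (SE 0.156). For Cox5a it gave the highest signal on the probe set used and the lowest on 1 of the 2 others. Of the 23 members with more than 1 probe set above a mean signal of 200, 7 had probe sets with opposite signs, and 4 (Atp5pb, Cox5a, Sdhd and Sdhc) had log2 differences more than 0.2 apart. In 12 of the 23, among them Atp5a1, Atp5d and Uqcrc2, they lay within 0.1.

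With the log2 Gapdh ratio as a covariate the members' median was 0.14, with 38 of 46 higher, against 0.01 over all genes, and complex V had 16 of 17 higher with a median of 0.18. None passed (0 of 46 by limma), and an unadjusted p under 0.05 was met by 7 members, all higher. Of all genes, 3.28% were higher and 2.76% lower at that p in the same fit. There Cox5a had 0.14, Sdhb 0.18 and Atp5b 0.26, against 0.35, 0.30 and -0.34 without the covariate. Uqcr10 went the other way from Cox5a and Sdhb, with 0.69 against 0.39 without the covariate. Without high-ROS replicate 3, 35 of 46 members were higher, with a median of 0.08 against 0.02 over all genes. The ratio was higher on average in the high-ROS arrays, and its part in the members' values was otherwise not tested.

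**Figure D4:**
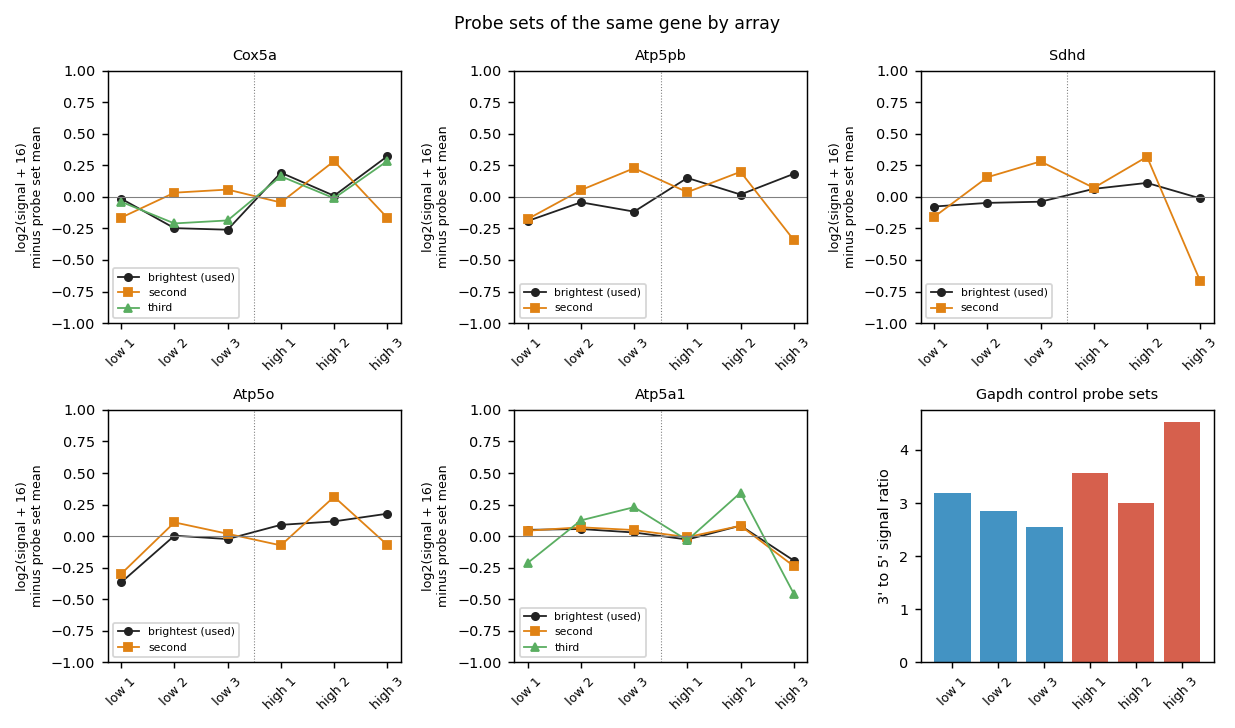
Lines show log2(signal + 16) minus the mean of that probe set on each array for the bright probe sets of 5 genes, ordered by brightness, and bars show the Gapdh 3' to 5' ratio (axis from 0). For Atp5pb and Sdhd the probe sets part on high-ROS replicate 3, where the ratio was 4.53.

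Genes that build or serve the complexes gave no calls either. Of 34 measured assembly factors, which insert cofactors and join subunits, 22 (64.7%) had a higher and 12 a lower mean. Their median log2 difference was 0.09, against 0.02 over all genes, of which 54.0% had a higher mean. None passed (0 of 34 by limma), and 3 were higher at an unadjusted p under 0.05 (8.82%, against 4.44% of all genes). Of all genes, 7.81% had such a p in either direction. Sdhaf4, which helps load flavin-bound Sdha onto Sdhb, had 131 ± 30.7 (SD, n = 3) on low-ROS and 210.2 ± 27.6 on high-ROS arrays (log2 difference 0.64, SE 0.209, limma adjusted p = 0.559). The others were Uqcc1, with 0.54 (SE 0.208), and Bcs1l, which inserts the Rieske protein, with 0.52 (SE 0.226), both factors of complex III named after their values were seen. Of 15 measured genes of electron carriers, 8 were higher and 7 lower, with 0 past the threshold and a median of 0.02. Unadjusted p-values under 0.05 were those of Coq6 and Coq10b of the ubiquinone pathway, with 0.61 (SE 0.222) and -0.34 (SE 0.121). They make up 13.3% of the carrier genes, against 7.81% of all genes in either direction. Cytochrome c1, Cyc1, a catalytic subunit of complex III outside the symbol rule, had 666 ± 29.6 and 687 ± 158, and Cycs, cytochrome c, 1882 ± 116 and 1908 ± 432.

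Among 13 regulators of nuclear respiratory genes, 6 had a higher and 7 a lower mean, and 0 passed in limma, while Tfb1m, Nrf1 and Gabpa had an unadjusted p under 0.05. They make up 23.1% of the list, against 7.81% of all genes in either direction. Groups did not overlap for 4 regulators with a higher and 2 with a lower mean (46.2%), against 13.4% of all genes. Nrf1, whose binding letters stand in member promoters above, had 626, 657 and 701 on the low-ROS and 421, 587 and 249 on the high-ROS arrays. The groups did not overlap and high-ROS replicate 3 was lowest (log2 difference -0.72, SE 0.242, limma adjusted p = 0.568). Gabpa, the DNA-binding subunit of GABP, had 827, 951 and 948 and then 686, 811 and 368, with -0.61 (SE 0.234) and groups that did not overlap. Tfb1m, a mitochondrial rRNA methyltransferase, was at 104 ± 22.7 (SD, n = 3) and 191 ± 35.1, with 0.79 (SE 0.212), and Tfam, which packs mitochondrial DNA, had 0.22 (SE 0.130), both with groups that did not overlap. The regulators named here were picked after their values were seen.

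Markers of the sorted cells and of their neighbours were set beside the members. Kit, Cd34, Fcgr3, Fcgr2b and Mpo, genes of the CMP gate and of early myeloid cells, were above the median gene on every array, with summed signals of 10063 to 10420 in low-ROS and 9960 to 11177 in high-ROS CMP. Summed signals did not overlap between the groups for the megakaryocyte list (5 of 6 genes measured; 1346 to 1382 in low-ROS, 747 to 1001 in high-ROS), the stem list (5 of 5; 497 to 664, 312 to 458), the erythroid list (5 of 7; 1779 to 2082, 1524 to 1749) and the monocyte list (5 of 5; 4843 to 5409, 6078 to 7838). The megakaryocyte sum was mostly Pf4, at 1107 ± 41.6 (SD, n = 3) and 666 ± 116, while Gp1bb had a log2 difference of 0.09 and Gp1bb, Gp9 and Vwf overlapped between the groups. In the other 3 lists Klf1, Hba-a1, Car1, Gata1, Ccr2, Mecom and Procr overlapped as well. Of these, Hba-a1 (0.14), Ccr2 (-0.13) and Procr (0.05) had log2 differences opposite in direction to the sum of their list. F13a1, at 2483 and 3161, was the brightest monocyte gene, and Hlf, at 401 and 261, the brightest stem gene. The sums overlapped for the neutrophil list (44310 to 47501, 44413 to 45834). They also overlapped for the B cell list (1068 to 1545, 1053 to 1362) and the T and NK cell list (1149 to 1268, 1156 to 1319). All 5 neutrophil genes had a lower high-ROS mean. Of these, Ltf (5759 to 6183, 5193 to 5717) and Ngp (7430 to 7826, 7185 to 7340) had groups that did not overlap. Of the CMP gate genes, only Kit had groups that did not overlap, and it was lower by a narrow margin (561 to 749, 523 to 559). Genes whose groups did not overlap made up 20% of the CMP gate and erythroid lists and 40% of the neutrophil and megakaryocyte lists. They made up 60% of the stem list and 80% of the monocyte list. Of all genes, 13.4% had such groups, 8.04% in the higher and 5.32% in the lower direction. No gene of any of these marker lists passed in limma, where the smallest adjusted p was 0.179, in the monocyte list. Hba-a1 was near background in both groups, at 2.55 and 4.58. The part of such differences in cell makeup in the members' values was not tested, and fewer cells of a type and less RNA per cell cannot be told apart in bulk samples.

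**Figure D5:**
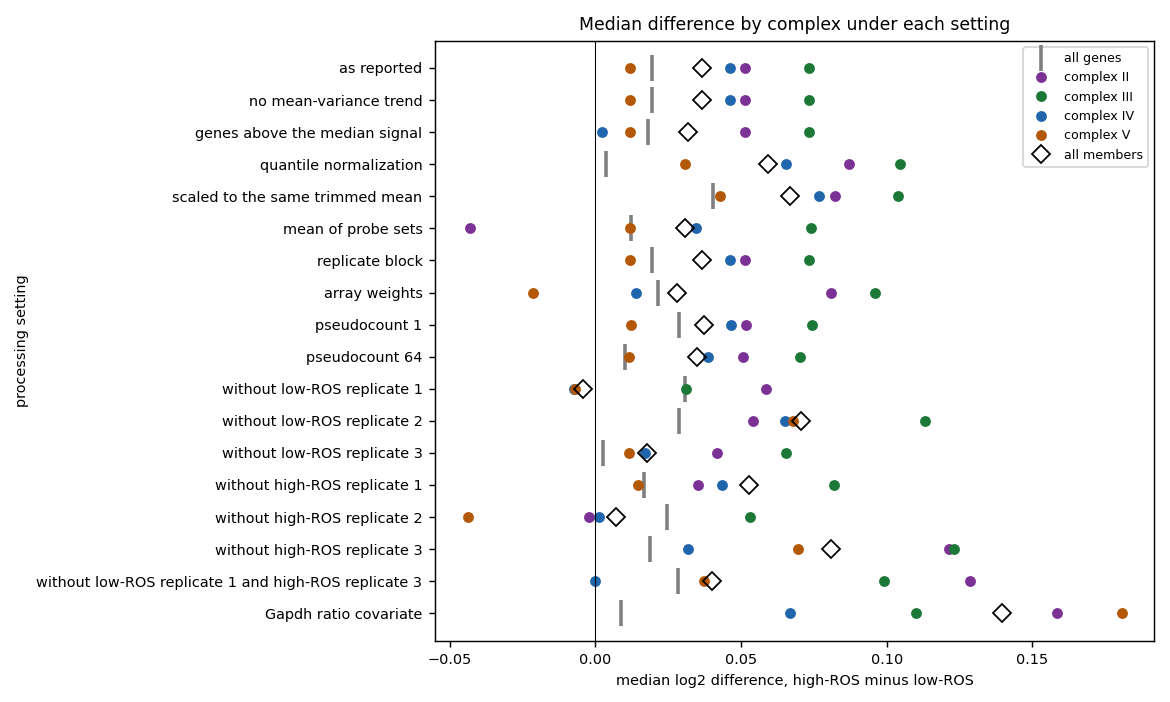
Points are the median log2 difference (high-ROS minus low-ROS) over the members of each complex, diamonds over all members and grey bars over all genes, for each processing setting. The members' median runs from -0.0042 without low-ROS replicate 1 to 0.14 with the Gapdh ratio as a covariate, and complex III is above 0 in every setting shown.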

How the data were processed

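Gene expression was read on 6 one-colour arrays, for each of which the authors deposited linear intensities, 1 for each probe set. Their summary and scaling steps are not given in the sources used here. Per the labels' protocols, NuGEN Ovation kits were used for amplification and biotin labelling. Array medians were 40.4 to 42.5 and means after trimming 2% of each tail 181 to 198. The values hold no detection calls.

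Of 45101 probe sets, 34945 had 1 symbol in the platform annotation. These gave 18193 genes, each represented by the probe set with the highest mean log2(signal + 16). Cox7b has no such probe set and is not analysed here. Entrez identifiers of all 46 members were found in RefSeq (GRCm38.p6). The probe set names of 14 members end in _s_at or _x_at, which marks probe sets that may also read similar transcripts.

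Groups were compared with limma 3.58.1 in R 4.3.3 (lmFit, eBayes with trend, 2-sided), with 4 residual degrees of freedom, 11.1 with those borrowed, and adjustment over all genes. Steps were tested on simulated data. The log2 differences added there were larger than that of any member, so whether differences of the members' size would be found was not tested. No exact permutation test is given, since 0.1 is the lowest p that 3 against 3 arrays allow. Errors are SD or SE with n = 3 arrays, whose number limits the precision. Python 3.11.15 with matplotlib 3.10.9 drew the figures.

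Genes were named by rule: members with an unadjusted p under 0.05, the 2 with the smallest p and the 2 brightest of each complex, all Sdh genes, the Cox isoform pairs, Atp5a1, Atp5b, Uqcrfs1, and the 3 assembly or carrier genes with the smallest p. The other members are named to complete each complex. The members, lists, tests and alternatives were chosen with earlier results of these data known.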

Additional observations from a re-analysis of the deposited data

How the results depend on the processing

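None of the 46 members was called in any of the 19 alternatives tried (limma), and the same held for the 62 other pathway genes. Over all genes the count of 10 became 0 without a mean-variance trend (829 higher and 522 lower by unadjusted p under 0.05), 17 among genes above the median signal, 17 at an adjusted p under 0.1, 4 with a pseudocount of 64, 30 with array weights and 3 with the Gapdh ratio. Leaving out 1 array, or both low-ROS replicate 1 and high-ROS replicate 3, gave 1 to 6 calls. With the replicate number as a block there were 4 calls over all genes and 0 among members. Same-numbered arrays had correlations of 0.119, 0.0966 and 0.00275 between their deviations from the group means, and low-ROS replicate 3 did not correlate best with its own number, so the numbers were not taken as pairs. The share of members with a higher mean was 27 of 46 as deposited, 32 of 46 with quantile normalization and 33 of 46 with scaling to the same trimmed mean. Over all genes the median difference in the same fits was 0.019, 0.0034 and 0.040. The members' median was 0.14 with the Gapdh ratio, and ran from -0.0042 to 0.081 with arrays left out. The median of complex V was 0.18 with the Gapdh ratio. That of complex IV was 0.0022 among genes above the median signal and -0.0075 to 0.065 with arrays left out. For tissue-limited isoforms it was -0.0011 over the 2 above the median. Of 827 recomputed differences of single genes, 748 kept their sign and 79 did not, from values that had not passed the test. With probe sets averaged per gene, the sign changed for Sdhd (-0.038) and Cox6c (0.027). With quantile normalization, the sign changed for Sdha (0.031), Cox7a2l (0.036), Cox5b (0.031), Atp5md (0.0054) and Atp5l (0.031). With scaling to the same trimmed mean, the sign changed for Sdha (0.025), Uqcrc1 (0.013), Cox7a2l (0.013), Cox5b (0.021), Atp5md (0.0092) and Atp5l (0.022). With array weights, the sign changed for Sdha (0.047), Uqcrq (-0.046), Cox6b1 (-0.024), Atp5md (0.0028), Atp5g1 (-0.059) and Atp5e (-0.072). With the Gapdh ratio as a covariate, the sign changed for Sdha (0.14), Uqcrh (0.071), Cox4i1 (0.19), Cox8a (0.048), Cox6b2 (0.073), Cox7a1 (-0.030), Cox7c (-0.067), Cox6c (0.054), Cox8c (-0.16), Cox5b (0.014), Atp5b (0.26), Atp5g2 (0.27), Atp5a1 (0.032), Atp5j2 (0.088), Atp5c1 (0.24), Atp5j (0.18) and Atp5md (0.019). With arrays left out, signs changed for Atp5c1 (-0.20 to 0.10), Atp5e (-0.10 to 0.079), Atp5g1 (-0.18 to 0.16), Atp5j (-0.14 to 0.070), Atp5j2 (-0.19 to 0.043), Atp5l (-0.040 to 0.013), Atp5md (-0.044 to 0.032), Cox4i1 (-0.39 to 0.0098), Cox4i2 (-0.39 to 0.017), Cox5b (-0.027 to 0.018), Cox6a1 (-0.066 to 0.13), Cox6b1 (-0.052 to 0.065), Cox6c (-0.10 to 0.0057), Cox7a1 (-0.061 to 0.43), Cox7a2 (-0.0075 to 0.12), Cox8b (-0.14 to 0.56), Cox8c (-0.078 to 0.33), Sdha (-0.085 to 0.13), Sdhc (-0.35 to 0.056), Uqcr11 (-0.012 to 0.27), Uqcrc1 (-0.079 to 0.059), Uqcrfs1 (-0.038 to 0.20) and Uqcrq (-0.11 to 0.13). For all these the cause was not tested. Low signals limit the tissue-limited isoforms.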
